A study of Rattus norvegicus with 18 samples.

Results

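The genes described here are 10 core genes of macrophages and microglia: C1qa, C1qb, C1qc, Tyrobp, Fcer1g, Aif1, Csf1r, Itgam, Lyz2 and Cd68. They were chosen by name, and every probe set of the array whose platform annotation gave 1 of these symbols and no other was taken. This gave 11 probe sets of 31099 on the array, and 10 genes of 14217 named ones. Aif1 has 2 probe sets and each of the others has 1. The 18 rat arrays comprised 9 of abdominal subcutaneous fat and 9 of hypothalamus, and each tissue had 3 RYGB-Success, 3 RYGB-Fail and 3 Pair-Fed arrays. RYGB is Roux-en-Y gastric bypass, in which a small stomach pouch is joined to a lower part of the intestine. Success denotes rats that were losing weight after the operation, Fail denotes rats that were gaining it, and Pair-Fed rats received as much food as the treated ones. Strain, sex, age and time after the operation were not stated, nor whether Pair-Fed rats had a sham operation.

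Macrophages are the resident phagocytes of most tissues, and microglia are those of the brain. Both depend on the receptor Csf1r, which binds the growth factors CSF-1 and IL-34. C1qa, C1qb and C1qc encode the chains of C1q, the protein that starts the classical complement pathway, and macrophages and microglia are main producers of it. Tyrobp and Fcer1g encode membrane adaptors whose cytoplasmic activation motifs carry signals from receptors such as Trem2 and the Fc receptors. Aif1, known as Iba1, is an actin-binding protein used as a microglial stain, and Itgam is the CD11b chain of a beta-2 integrin. Lyz2 is lysozyme, which is also abundant in neutrophils, and Cd68 is a glycoprotein of late endosomes and lysosomes.

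PU.1 is a transcription factor that many macrophage genes depend on, and it binds purine-rich sites with the core GAGGAA. The 250 bases before the start of the gene were available for 6 of the 10 genes from RefSeq on the rat build GRCr8. GAGGAA was present on either strand (TTCCTC on the other) in 5 of those 6, and in 23.3% of 33469 rat promoters of the same length. A related core, GGAAGT, was present on either strand in 4 of 6 and in 19.2% of all. Promoters are shown for C1qa, C1qb and Lyz2, the genes with the lowest p-values in hypothalamus, and for Csf1r, the one with the lowest p-value in fat. They are written 5′ to 3′ along the gene, with capitals marking GAGGAA on either strand.
C1qa (chr5:154419934-154420183, minus strand): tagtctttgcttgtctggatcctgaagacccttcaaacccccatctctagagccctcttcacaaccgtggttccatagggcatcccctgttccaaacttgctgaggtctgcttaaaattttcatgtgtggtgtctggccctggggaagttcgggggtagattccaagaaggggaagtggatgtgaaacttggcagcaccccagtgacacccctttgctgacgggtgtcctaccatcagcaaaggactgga
C1qb (chr5:154407828-154408077, minus strand): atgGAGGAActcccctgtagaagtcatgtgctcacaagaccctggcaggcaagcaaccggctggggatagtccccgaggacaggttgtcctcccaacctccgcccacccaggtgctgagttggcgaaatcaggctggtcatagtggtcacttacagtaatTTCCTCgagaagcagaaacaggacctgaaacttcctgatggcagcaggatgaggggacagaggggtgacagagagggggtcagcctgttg
Lyz2 (chr7:54798012-54798261, minus strand): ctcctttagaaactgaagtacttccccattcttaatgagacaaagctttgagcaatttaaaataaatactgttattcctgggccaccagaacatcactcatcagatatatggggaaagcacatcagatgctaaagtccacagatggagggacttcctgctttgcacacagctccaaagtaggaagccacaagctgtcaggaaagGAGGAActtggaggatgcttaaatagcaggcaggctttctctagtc
Csf1r (chr18:56834129-56834378, plus strand): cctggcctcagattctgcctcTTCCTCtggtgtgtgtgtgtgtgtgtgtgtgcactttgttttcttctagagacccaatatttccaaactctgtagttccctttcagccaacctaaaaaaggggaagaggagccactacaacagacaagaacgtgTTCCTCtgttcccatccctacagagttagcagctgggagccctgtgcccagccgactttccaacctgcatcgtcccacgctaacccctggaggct
C1qa has no GAGGAA in this window, but it has GGAAGT. In C1qb the motif begins 247 and 90 bases before the start, in Lyz2 46 bases and in Csf1r 229 and 95 bases before it. Itgam has it at 151 and 39 bases and Cd68 at 27 bases. These matches describe letters only and are not binding sites. In the gene table C1qa, C1qc and C1qb stand next to each other.

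The arrays carried their labelled tissue: Adipoq, the adipocyte hormone adiponectin, had signals of 17271 to 60117 in fat and 86.0 to 409.7 in hypothalamus, and Snap25, a protein of nerve terminals, had 52.0 to 1089 in fat and 13279 to 25290 in hypothalamus. A signal is the linear brightness of a probe set as deposited. Median signals were 98.2 to 288 in fat and 91.1 to 127 in hypothalamus. The third RYGB-Fail fat array stood apart, with the highest median, a correlation with the other fat arrays whose median was 0.73, and the lowest actin 3′ to 5′ signal ratio in fat, 2.46. The other 8 fat arrays had ratios of 12 or more, and values that it moved are also given without it where they are described. In hypothalamus, actin and GAPDH 3′ to 5′ ratios were smallest on the third RYGB-Success array, 6.65 and 1.58, which also had the smallest array weight, 0.33. The actin ratio was highest on the second Pair-Fed array, 179, followed by 48.5 and 34.0 on the second and first RYGB-Success arrays. The GAPDH ratio was highest on the first RYGB-Fail array, 6.22.

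Of the 10 genes, 9 passed the filter on dim probe sets in fat and 8 in hypothalamus, and only those were tested. Itgam was below it in both tissues, with signals of 1.97 to 70.3 in fat and 1.64 to 12.7 in hypothalamus. Cd68 was below it in hypothalamus, with 6.60 to 76.9. The second Aif1 probe set was dim in both, with 1.38 to 189 in fat and 1.57 to 48.3 in hypothalamus, so Aif1 is described by its brighter probe set. At such low signals the log scale scatters widely, so no difference is read from these probe sets.

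In Pair-Fed rats most of these genes were brighter in fat than in hypothalamus. All 8 genes that passed the filter in both tissues passed the test (limma, Benjamini-Hochberg adjusted p under 0.05 over 18625 probe sets) with higher signal in fat, where 22.7% of all probe sets were called higher and 41.5% were called in either direction. Cd68 was called as well, but it passed the filter here only through its fat arrays and is not counted. Lyz2 had signals of 12340, 9156 and 7247 in Pair-Fed fat, against 683, 837 and 635 in Pair-Fed hypothalamus. The tissues did not overlap, and the log2 difference was 3.71 ± 0.36 (SE, adjusted p = 2.36e-07), a fold of 13.1. Cd68 had 2673, 1267 and 879 in Pair-Fed fat, against 38.1, 47.8 and 47.2 in Pair-Fed hypothalamus. The tissues did not overlap, but the hypothalamus signals were too dim for a size of the difference to be read.

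The C1q chains followed. Log2 differences were 3.34 ± 0.53 for C1qc, 2.94 ± 0.45 for C1qb and 2.73 ± 0.48 for C1qa (SE), which are folds of 10.1, 7.69 and 6.65. The adaptors were closer between tissues, at 2.27 ± 0.41 for Tyrobp and 1.79 ± 0.49 for Fcer1g. Csf1r had 1943, 1225 and 1215 in Pair-Fed fat, against 337, 435 and 352 in Pair-Fed hypothalamus, a log2 difference of 1.94 ± 0.39. Aif1 had the smallest difference of the 8, 1.47 ± 0.56 (adjusted p = 0.0417), with 1762, 1101 and 776 in fat, against 353, 427 and 467 in hypothalamus. Itgam was not tested. Over all probe sets tested the median difference was 0.19.

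The call of Aif1 was lost under quantile normalization (adjusted p = 0.145) and when any of 6 single arrays was left out. With arrays centred on their median, Aif1, Fcer1g and Csf1r all missed the threshold (adjusted p = 0.358, 0.172 and 0.0733). Over all 18 arrays, whatever the treatment, every fat array was above every hypothalamus array for the 3 C1q chains, Tyrobp and Lyz2. The same held for Cd68, which was below the filter in hypothalamus. The share of all probe sets that did so was not counted. Fcer1g, Aif1, Csf1r and Itgam overlapped between tissues. In bulk tissue, fewer cells of a type and less RNA per cell cannot be told apart.

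**Figure D1:**
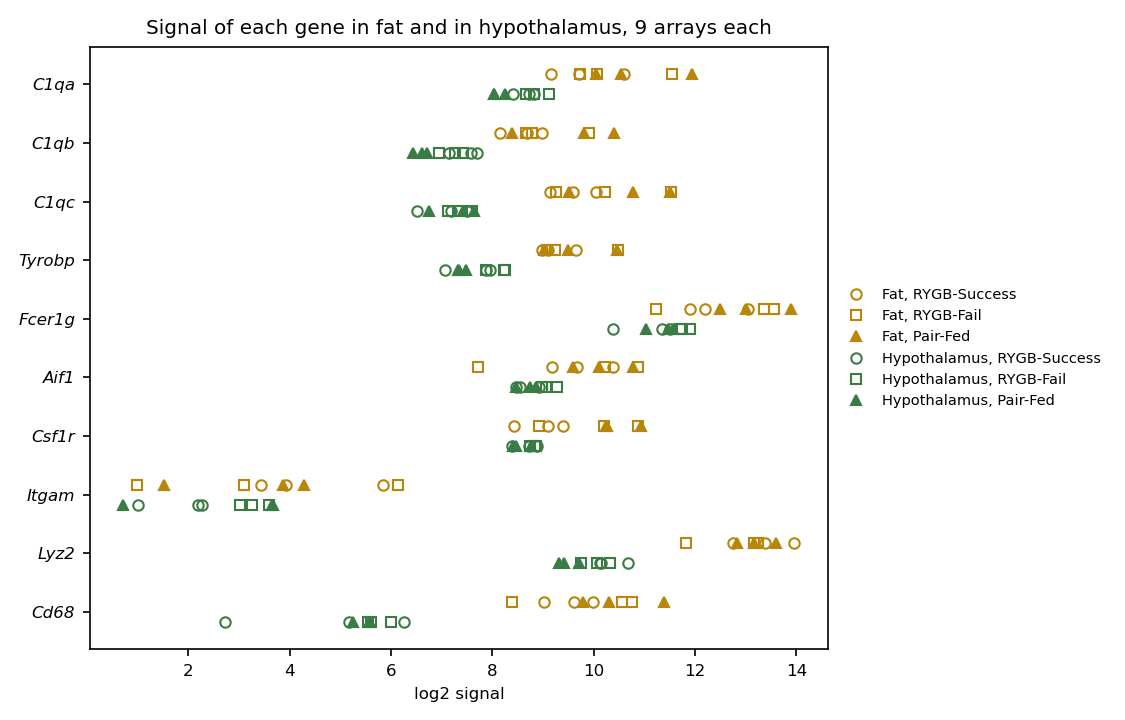
Log2 signal of each of the 10 genes (rows) on the 9 fat arrays (gold, upper points of a row) and the 9 hypothalamus arrays (green, lower points), with treatment given by symbol. For C1qa, C1qb, C1qc, Tyrobp, Lyz2 and Cd68 all fat points lie to the right of all hypothalamus points. The fat points spread more widely than the hypothalamus points, except in Cd68.

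In hypothalamus no gene of the set passed the adjusted threshold in any of the 3 comparisons of treatments. The C1qa, C1qb and Lyz2 signals were higher in both operated groups than in any Pair-Fed array. The share of all probe sets for which this held in both groups was not counted. Taken singly, RYGB-Success lay wholly above Pair-Fed in 10.8% of all probe sets and RYGB-Fail in 5.81%. C1qa had 339, 424 and 455 in RYGB-Success, 558, 454 and 405 in RYGB-Fail, and 263, 302 and 263 in Pair-Fed rats. All 6 operated arrays were above the brightest Pair-Fed one. The log2 difference was 0.55 ± 0.24 for RYGB-Success over Pair-Fed (limma, adjusted p = 0.368) and 0.77 ± 0.24 for RYGB-Fail over Pair-Fed (limma, adjusted p = 1). The second of these ranked 32 by p among 18625 probe sets.

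C1qb had 189.8, 142 and 208 in RYGB-Success, 123, 170.1 and 154 in RYGB-Fail, and 97.8, 105 and 86.4 in Pair-Fed rats. Again both operated groups stood clear of Pair-Fed, by 0.89 ± 0.32 for RYGB-Success (limma, adjusted p = 0.291) and 0.62 ± 0.32 for RYGB-Fail (adjusted p = 1). C1qc, whose gene lies between those of the other chains, had signals of 179.9, 90.7 and 145 in RYGB-Success, 139, 194 and 165 in RYGB-Fail, and 170.1, 199 and 107 in Pair-Fed rats. All 3 groups overlapped for this chain. Its differences from Pair-Fed were -0.21 ± 0.36 and 0.10 ± 0.36.

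Lyz2 had 1123, 1126 and 1631 in RYGB-Success, 1071, 1276 and 859.5 in RYGB-Fail, and 683, 837 and 635 in Pair-Fed rats. All operated arrays were above all Pair-Fed arrays, with the lowest RYGB-Fail array close to the highest Pair-Fed one. The difference was 0.84 ± 0.24 for RYGB-Success over Pair-Fed (limma, adjusted p = 0.229) and 0.57 ± 0.24 for RYGB-Fail over Pair-Fed (adjusted p = 1). Markers of blood cells were high in the same RYGB-Success arrays. The 6 neutrophil markers on the array summed to 387 to 1766 in RYGB-Success, 197 to 438 in RYGB-Fail and 120 to 221 in Pair-Fed hypothalamus, and the red cell list of 3 genes summed to 12562 to 24798, 3466 to 8046 and 3056 to 12465 in those groups. S100a8, a neutrophil calcium-binding protein, had 121, 614 and 1397 in RYGB-Success, 6.24, 230 and 76.9 in RYGB-Fail, and 39.2, 14.6 and 21.1 in Pair-Fed hypothalamus. Of the neutrophil list 4 of 6 genes were below the filter in hypothalamus. The part of these cells in the Lyz2 result was not tested.

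Among the adaptors, RYGB-Fail arrays were the brightest group. Tyrobp had 246, 235 and 133 in RYGB-Success, 300.4, 303 and 233 in RYGB-Fail, and 162, 160 and 178 in Pair-Fed rats. RYGB-Fail lay wholly above Pair-Fed, by 0.73 ± 0.30 (limma, adjusted p = 1), while RYGB-Success spanned the Pair-Fed values, with the third of its arrays lowest of all 9. Fcer1g had 2600, 2904 and 1337 in RYGB-Success, 3806, 3313 and 3430 in RYGB-Fail, and 3012, 2092 and 2810 in Pair-Fed rats. RYGB-Fail was above both other groups without overlap.

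For RYGB-Success over RYGB-Fail the Fcer1g difference was -0.70 ± 0.27 (limma, adjusted p = 0.784). Without the third RYGB-Success array, the one with the lowest actin and GAPDH ratios, it was -0.35. RYGB-Fail over Pair-Fed was 0.43 ± 0.27 for Fcer1g. The part of RNA quality in these adaptor differences was not tested. For C1qa, C1qb and Lyz2 the third RYGB-Success array was the brightest of its group, at 455, 208 and 1631. The part of RNA quality in the differences of those 3 genes was not tested either.

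Aif1 had 356, 487 and 373 in RYGB-Success, 504, 620 and 529.7 in RYGB-Fail, and 353, 427 and 467 in Pair-Fed rats. RYGB-Fail was above both other groups, by 0.41 ± 0.24 over Pair-Fed, and RYGB-Success lay below RYGB-Fail by a difference of -0.45 ± 0.24 (limma, adjusted p = 0.784). Csf1r had 425, 335 and 471 in RYGB-Success, 462, 428 and 461 in RYGB-Fail, and 337, 435 and 352 in Pair-Fed rats. Its groups overlapped, and all 9 arrays lay within a 1.41-fold range, the narrowest of the 10 genes in this tissue.

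Among the dim genes, Itgam had 4.81, 4.58 and 2.00 in RYGB-Success, 12.1, 9.54 and 8.10 in RYGB-Fail, and 1.64, 12.6 and 12.7 in Pair-Fed hypothalamus. Cd68 had 6.60, 76.9 and 36.1 in RYGB-Success, 48.8, 63.7 and 46.6 in RYGB-Fail, and 38.1, 47.8 and 47.2 in Pair-Fed hypothalamus. Both genes spread most within a single group, and neither was tested.

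**Figure D2:**
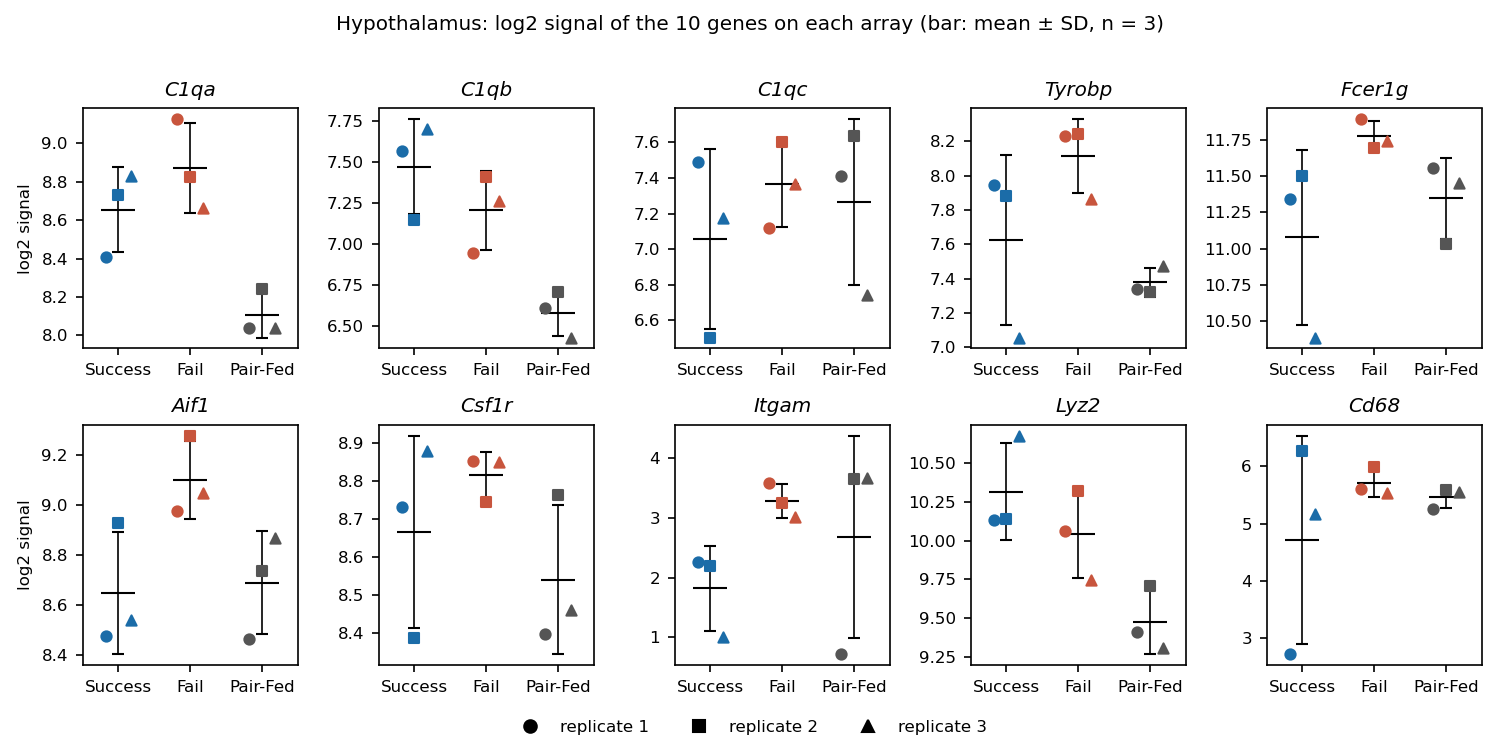
Log2 signal of each gene on the 9 hypothalamus arrays, by treatment and replicate (symbol), with the mean and SD of each group of 3 arrays; each panel has its own axis. In C1qa, C1qb and Lyz2 all RYGB-Success and RYGB-Fail points lie above all Pair-Fed points, and in Fcer1g and Aif1 the RYGB-Fail points lie above those of both other groups.

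Counted over the set, RYGB-Fail over Pair-Fed in hypothalamus was above 0 for all 8 tested genes, where 54.4% of all probe sets were, and 6 of the 8 had groups that did not overlap, where 5.81% of all probe sets did in that direction. With arrays centred on their median or quantile normalized 1 of the 8 turned, C1qc at -0.011 and -0.012, and it also turned without the third Pair-Fed array (-0.16) and without the second RYGB-Fail array (-0.02). No gene was called (0% of 18625 probe sets), and 445 probe sets had an unadjusted limma p under 0.05, 2.39%, among them C1qa, Tyrobp and Lyz2. The median difference was 0.50 for the 10 genes and for the 8 tested, against 0.03 over all probe sets. For RYGB-Success over Pair-Fed, 5 of 8 were above 0, where 54.4% of probe sets were, 3 of 8 did not overlap upward, where 10.8% of probe sets did, and the median of the 10 was 0.04 with the 2 dim genes and 0.19 over the 8 tested, against 0.05 over all. There, 2 probe sets of 18625 were called (0.0107%, with 13.1% at an unadjusted p under 0.05), none of them of these genes. For RYGB-Success over RYGB-Fail, 6 of 8 were below 0, where 48.4% of probe sets were, 2 of 8 did not overlap downward, where 4.69% of probe sets did, and the median was -0.38 for the 10 and -0.26 for the 8 tested, against 0.01 over all. In that comparison 1 probe set was called (0.00537%, with 6.01% at an unadjusted p under 0.05), again not of the set. The first and second comparisons share the Pair-Fed arrays, and each shares an operated group with the third.

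Summed over the 10 genes, the signal was 4789 to 5824 in RYGB-Success, 6291 to 7024 in RYGB-Fail and 4617 to 5117 in Pair-Fed hypothalamus. The choroid plexus and ependyma list, 6 genes of cells that line the ventricles, was summed as well. Its signals were 14178 to 22350 in RYGB-Success, 16319 to 20740 in RYGB-Fail and 9171 to 14681 in Pair-Fed hypothalamus. In this list RYGB-Success and RYGB-Fail overlapped. Ttr, the transthyretin of choroid plexus, had 13120, 20677 and 15085 in RYGB-Success, 18688, 14310 and 15022 in RYGB-Fail, and 10858, 13420 and 8234 in Pair-Fed hypothalamus. Sums over 7 neuronal genes overlapped between the groups, at 36292 to 51663, 38706 to 44662 and 42488 to 49023 in RYGB-Success, RYGB-Fail and Pair-Fed hypothalamus. So did those over 7 astrocyte genes (43792 to 59468, 47051 to 56972 and 47817 to 55302) and over 6 oligodendrocyte genes (32658 to 52364, 36386 to 40408 and 38993 to 42555). The part of choroid plexus in the results was not tested.

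**Figure D3:**
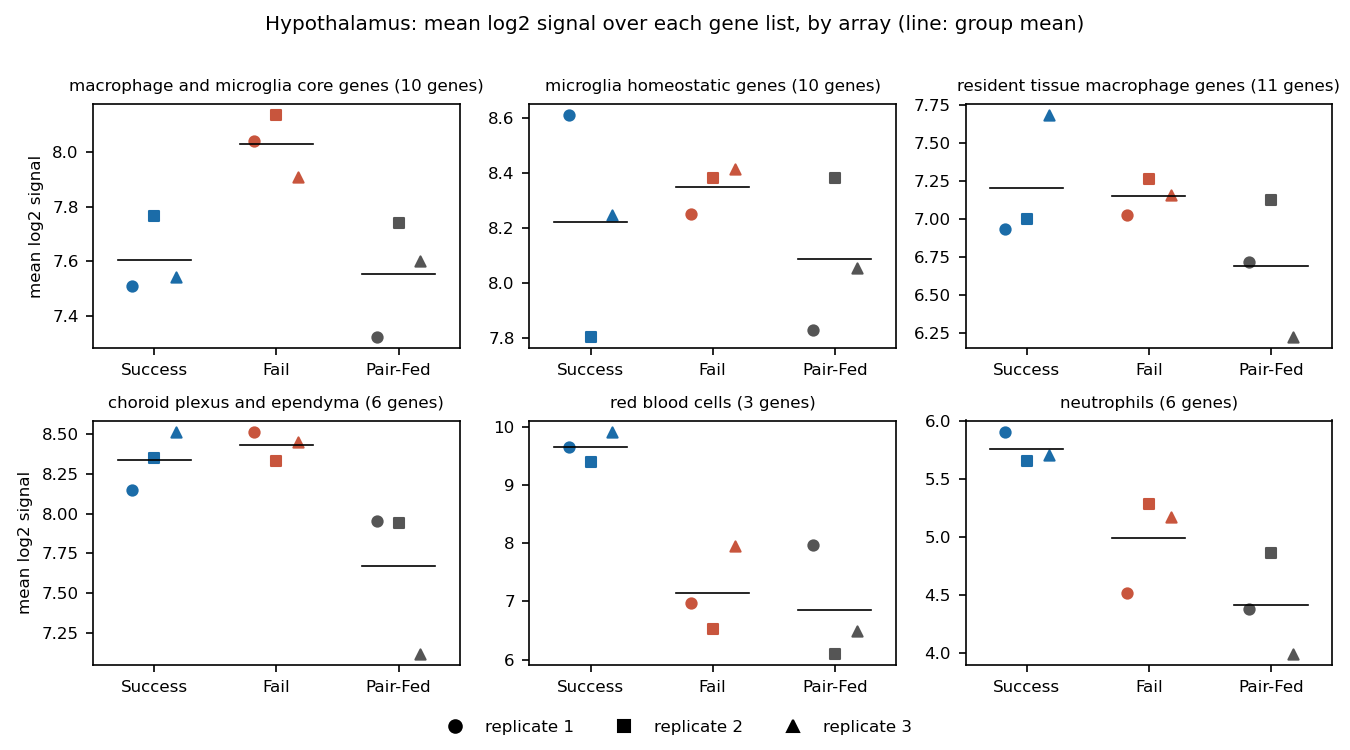
Mean log2 signal over each of 6 gene lists on the 9 hypothalamus arrays, by treatment and replicate (symbol), with a line at the group mean; each panel has its own axis. RYGB-Fail arrays are highest for the core genes, RYGB-Success arrays are highest for the red cell and neutrophil lists, and both operated groups lie above Pair-Fed for choroid plexus and ependyma. The mean of the core genes includes Itgam and Cd68, which were below the filter and scatter widely.

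Further genes of the same biology were read from 7 lists of 94 genes, and none of their members passed the adjusted threshold in any comparison of treatments. In hypothalamus the microglia homeostatic list had a median of 0.21 for RYGB-Fail over Pair-Fed, with 9 of its 10 genes on the array above 0, and 0.25 for RYGB-Success over Pair-Fed, with 7 of 10 above 0. P2ry12, the purine receptor of resting microglia, had 830, 786 and 567 in RYGB-Success, 692, 639 and 720 in RYGB-Fail, and 481, 634 and 419 in Pair-Fed rats. Trem2, the lipid receptor that signals through Tyrobp, had 241, 147 and 114 in RYGB-Success, 142, 147 and 185 in RYGB-Fail, and 74.0, 131 and 99.1 in Pair-Fed rats. For both genes RYGB-Fail lay above Pair-Fed without overlap, narrowly for P2ry12, while RYGB-Success overlapped Pair-Fed. Only these 2 of the 10 genes lay so for RYGB-Fail, where 5.81% of all probe sets did. None of the 9 tested genes of the list had an unadjusted limma p under 0.05 in either comparison with Pair-Fed.

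The list of Tyrobp and Fcer1g partners had medians of 0.69 for RYGB-Success and 0.66 for RYGB-Fail over Pair-Fed, with 11 and 9 of 12 genes above 0, although only 6 of the 12 passed the filter. Lcp2, the SLP-76 adaptor of this pathway, had 92.9, 167 and 125 in RYGB-Success, 139, 146 and 123 in RYGB-Fail, and 51.5, 68.7 and 57.3 in Pair-Fed rats. Both operated groups were clear of Pair-Fed, by 1.09 ± 0.37 (adjusted p = 0.275) and 1.21 ± 0.37 (adjusted p = 1). In the list of beta-2 integrin and leukocyte actin genes, 8 of 13 were above 0 in each of those comparisons, where 54.4% of all probe sets were. Only 6 of the 13 passed the filter, and the dim Itgam of the set is 1 of the 13. Ptprc, the leukocyte antigen CD45, had 262, 156 and 130 in RYGB-Success, 179, 227 and 196 in RYGB-Fail, and 141, 92.2 and 92.9 in Pair-Fed rats. Laptm5, a lysosomal membrane protein of leukocytes, was higher in RYGB-Fail than in Pair-Fed without overlap, by 0.78 ± 0.31 (adjusted p = 1).

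Resident tissue macrophage genes in hypothalamus had medians of 0.32 for RYGB-Success and 0.23 for RYGB-Fail over Pair-Fed. Cd163, the haemoglobin scavenger receptor of macrophages around vessels and in the meninges, had 82.1, 178 and 337 in RYGB-Success, 97.8, 174 and 107 in RYGB-Fail, and 43.8, 108 and 7.11 in Pair-Fed rats. These groups overlapped, and the spread within Pair-Fed was wide. Lipid-associated macrophage genes had medians of 0.15 and 0.21 in the same order. Spp1, osteopontin, had 88.3, 156 and 125 in RYGB-Success, 88.4, 122 and 59.9 in RYGB-Fail, and 48.5, 62.7 and 34.0 in Pair-Fed rats, and RYGB-Success was above Pair-Fed by 1.35 ± 0.45 (adjusted p = 0.267).

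Complement cascade genes other than C1q were above 0 for 8 and 7 of 11 genes in hypothalamus, with medians of 0.22 and 0.13 for RYGB-Success and RYGB-Fail over Pair-Fed. C3, the central complement protein that the C1q pathway cleaves, had 120, 217 and 111 in RYGB-Success, 276, 319 and 228 in RYGB-Fail, and 289, 202 and 216 in Pair-Fed rats. It lay below RYGB-Fail in RYGB-Success by a difference of -0.93 ± 0.32 (adjusted p = 0.784). Of Csf1r ligands and myeloid transcription factors, with medians of 0.05 and 0.10 over Pair-Fed, Runx1 had the lowest p for RYGB-Success over Pair-Fed. Runx1, a transcription factor of early myeloid cells and microglia, had 355, 327 and 603 in RYGB-Success, 160, 276 and 221 in RYGB-Fail, and 188, 168 and 145 in Pair-Fed rats. RYGB-Success was above both other groups, by 1.31 ± 0.31 over Pair-Fed (adjusted p = 0.215) and 0.95 ± 0.31 over RYGB-Fail (adjusted p = 0.784). Of the 9 tested genes of that list, 1 was higher in RYGB-Success than in Pair-Fed and 2 were lower (unadjusted limma p under 0.05). Over all probe sets, 13.1% reached that p in either direction. The list summed to 12612 to 17174 in RYGB-Success, 13751 to 19335 in RYGB-Fail and 17807 to 21087 in Pair-Fed hypothalamus.

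In fat, mean log2 signals of 8 of the 9 tested genes were lower in RYGB-Success than in Pair-Fed, but replicates spread widely and no gene passed. Csf1r had 551, 346 and 670 in RYGB-Success, 1870, 1183 and 484 in RYGB-Fail, and 1943, 1225 and 1215 in Pair-Fed fat. All RYGB-Success arrays lay below all Pair-Fed arrays, and RYGB-Fail reached across both. The log2 difference was -1.50 ± 0.48 for RYGB-Success over Pair-Fed (limma, adjusted p = 0.735), a fold of 0.353. Its range was -1.71 to -1.23 when single arrays were left out.

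Against RYGB-Fail, RYGB-Success differed in Csf1r by -1.02 ± 0.48 (limma, adjusted p = 0.882). Without the third RYGB-Fail array this was -1.56 with an adjusted p = 0.0441, and 1050 probe sets were then called in that comparison. No other alternative brought a gene of the set past the threshold in a comparison of treatments within a tissue, or in the differences between tissues.

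The C1q chains in fat varied together across arrays. C1qa had 1540, 833 and 568 in RYGB-Success, 3004, 1070 and 846 in RYGB-Fail, and 3917, 1483 and 1054 in Pair-Fed fat. C1qc had 1051, 768 and 565 in RYGB-Success, 2939, 1201 and 609 in RYGB-Fail, and 2923, 1759 and 728 in Pair-Fed fat. C1qb had 507, 283 and 411 in RYGB-Success, 961, 404 and 441 in RYGB-Fail, and 1346, 896 and 333 in Pair-Fed fat. All groups overlapped for each chain, the first array of each group was its brightest, and no chain passed. For RYGB-Success over Pair-Fed the differences were -1.02 ± 0.59, -1.01 ± 0.60 and -0.92 ± 0.53 for C1qa, C1qc and C1qb (adjusted p = 0.975 for each). With single arrays left out they ran from -1.42 to -0.47, from -1.56 to -0.56 and from -1.50 to -0.49, nearest 0 without the first Pair-Fed array and farthest without the third.

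Cd68 had 782, 519 and 1013 in RYGB-Success, 1726, 1514 and 334 in RYGB-Fail, and 2673, 1267 and 879 in Pair-Fed fat. Fcer1g had 8391, 3801 and 4716 in RYGB-Success, 12088, 10482 and 2402 in RYGB-Fail, and 15311, 8261 and 5744 in Pair-Fed fat. For both genes 1 RYGB-Success array was brighter than the dimmest Pair-Fed one, and the third RYGB-Fail array was the dimmest of all 9. RYGB-Success over Pair-Fed was -0.95 ± 0.61 for Cd68 and -0.76 ± 0.58 for Fcer1g, and with single arrays left out these ran from -1.31 to -0.51 and from -1.09 to -0.37.

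Tyrobp had 807, 508 and 545 in RYGB-Success, 1420, 542 and 603 in RYGB-Fail, and 1411, 718 and 516 in Pair-Fed fat. Aif1 had 1336, 576 and 816 in RYGB-Success, 1887, 1202 and 211 in RYGB-Fail, and 1762, 1101 and 776 in Pair-Fed fat. The 3 groups overlapped for both, with RYGB-Success over Pair-Fed at -0.41 ± 0.47 and -0.42 ± 0.69. These ran from -0.73 to -0.0041 and from -0.74 to -0.11 with single arrays left out. Lyz2 had 10672, 6840 and 15952 in RYGB-Success, 9181, 9744 and 3602 in RYGB-Fail, and 12340, 9156 and 7247 in Pair-Fed fat. It was the single tested gene with a difference above 0 for RYGB-Success over Pair-Fed, 0.17 ± 0.42, and this turned to -0.20 with arrays centred on their median. Itgam, not tested, had 57.0, 15.2 and 10.8 in RYGB-Success, 70.3, 1.97 and 8.58 in RYGB-Fail, and 14.7, 2.87 and 19.5 in Pair-Fed fat.

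**Figure D4:**
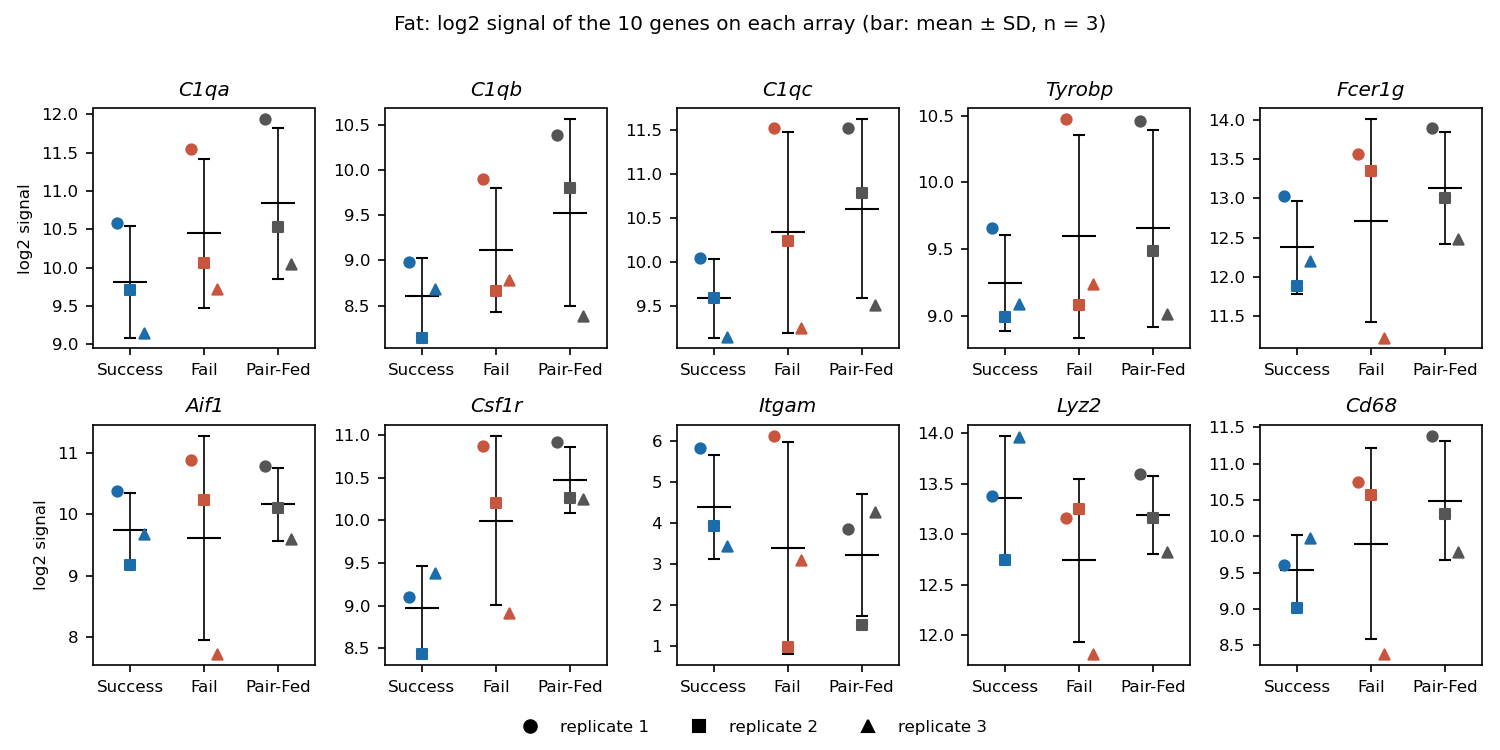
Log2 signal of each gene on the 9 fat arrays, by treatment and replicate (symbol), with the mean and SD of each group of 3 arrays; each panel has its own axis. In Csf1r the RYGB-Success points lie below all Pair-Fed points; in the other genes the groups overlap, and in Fcer1g, Aif1, Lyz2 and Cd68 the third RYGB-Fail array is lowest.

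For RYGB-Success over Pair-Fed in fat, 8 of 9 tested genes were below 0, where 41.8% of all probe sets were, and 1 of 9 did not overlap downward, where 7.69% of all probe sets did. The median was -0.84 for the 10 genes and -0.92 for the 9 tested, against 0.11 over all probe sets. Without the first Pair-Fed array the median of the 10 was -0.42, and without the third it was -1.19. In this comparison no probe set was called (0% of 18625, with 905 or 4.86% at an unadjusted limma p under 0.05). Centring each array on its median lowers every difference of this comparison by 0.37, since RYGB-Success arrays had higher medians, 163 to 200, than Pair-Fed arrays, 126 to 147. For RYGB-Fail over Pair-Fed all 9 were below 0, from -0.59 to -0.06, where 58.1% of probe sets were, and 0 of 9 did not overlap downward, where 4.33% did. The median of the 10 was -0.41, against -0.09 over all, and no probe set was called (0%, with 501 or 2.69% at an unadjusted limma p under 0.05). Without the third RYGB-Fail array 7 of these 9 were above 0 and the median was 0.15, and without the first Pair-Fed array 4 of 9 were above 0 and the median was -0.01. For RYGB-Success over RYGB-Fail, 7 of 9 were below 0, where 37.4% of probe sets were, and 0 of 9 did not overlap downward, where 2.61% did, with a median of -0.36, against 0.17 over all, and no probe set was called (0%, with 1060 or 5.69% at an unadjusted limma p under 0.05). Without the first RYGB-Fail array 4 of 9 were below 0 and that median was 0.07. Without the third RYGB-Fail array it was -0.90, and 8 of 9 were below 0.

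The arrays of fat differed in other cell types too. Summed signals of 9 fibroblast and progenitor genes were 26032 to 74253 in RYGB-Success, 41286 to 95297 in RYGB-Fail and 94244 to 125620 in Pair-Fed fat. All 9 were lower in RYGB-Success than in Pair-Fed without overlap, where 7.69% of all probe sets were. The T lymphocyte list of 8 genes summed to 2085 to 17235 in RYGB-Success, 1764 to 2020 in RYGB-Fail and 1126 to 2072 in Pair-Fed fat, and the red cell list to 14547 to 39087, 2646 to 6750 and 4966 to 8236 in those groups. Skeletal muscle markers, 11 genes, summed to 15806 to 30059 in RYGB-Success, 29217 to 221278 in RYGB-Fail and 12815 to 15645 in Pair-Fed fat. The epithelial list of 11 genes summed to 826 to 9200, 388 to 1974 and 599.9 to 628 in those groups. Mast cell markers, 9 genes, summed to 1889 to 3929 in RYGB-Success, 2984 to 7728 in RYGB-Fail and 3348 to 9475 in Pair-Fed fat, and 3 B lymphocyte genes to 227 to 5241, 71.0 to 770.2 and 85.5 to 260.0 in those groups. Endothelial genes, 7 in number, summed to 34990 to 53735 in RYGB-Success, 18901 to 38080 in RYGB-Fail and 26467 to 40304 in Pair-Fed fat, and 8 adipocyte genes to 66700 to 115715, 51087 to 134463 and 73996 to 134892. The third RYGB-Fail array held the lowest RYGB-Fail sum for fibroblasts, muscle and mast cells and the highest for epithelium, B lymphocytes, endothelium and adipocytes. Without it the RYGB-Fail sums were 67762 to 95297, 66207 to 221278 and 4417 to 7728 for fibroblasts, muscle and mast cells, and 388 to 529.9, 71.0 to 130, 18901 to 24818 and 51087 to 54659 for epithelium, B lymphocytes, endothelium and adipocytes. The part of these other cells in the fat results was not tested.

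Genes of resident tissue macrophages in fat lay lower in RYGB-Success than in Pair-Fed, with a median of -1.10 and 10 of 11 genes below 0, but none was called after adjustment. Folr2, a folate receptor of resident macrophages, had 656, 423 and 225 in RYGB-Success, 2358, 1306 and 461 in RYGB-Fail, and 3260, 1833 and 877 in Pair-Fed fat. RYGB-Success was below Pair-Fed without overlap, at -2.13 ± 0.64 (adjusted p = 0.697). Clec10a, a lectin of such macrophages, had 811, 946 and 276 in RYGB-Success, 3558, 1259 and 549 in RYGB-Fail, and 4187, 1876 and 1898 in Pair-Fed fat. Its difference was -2.05 ± 0.66 (adjusted p = 0.735), also without overlap. Maf, a transcription factor of resident macrophages, differed by -1.06 ± 0.32 (adjusted p = 0.699), Cd163 by -1.17 ± 0.40 and Mrc1, the mannose receptor, by -1.10 ± 0.38.

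Other lists in fat differed in direction. For RYGB-Success over Pair-Fed the medians were -1.17 for the microglia homeostatic list, with 9 of 10 genes below 0, and -0.82 for complement cascade genes, with 9 of 11 below 0. Serping1, the inhibitor of the C1 complex that C1q belongs to, had 3921, 3429 and 2948 in RYGB-Success, 8714, 3225 and 3384 in RYGB-Fail, and 9185, 6351 and 6421 in Pair-Fed fat. RYGB-Success did not overlap Pair-Fed there, at -1.08 ± 0.37 (adjusted p = 0.789). Of Csf1r ligands and transcription factors, with a median of -0.45, Il34 had 158, 143 and 84.9 in RYGB-Success, 412, 166 and 249.8 in RYGB-Fail, and 321, 369.6 and 343 in Pair-Fed fat. This ligand of Csf1r differed by -1.47 ± 0.47 (adjusted p = 0.735), also without overlap. In the remaining lists the median was 0.16 for Tyrobp and Fcer1g partners, 0.49 for beta-2 integrin and leukocyte actin genes, with 10 of 13 above 0, and -0.08 for lipid-associated macrophage genes. Itgal, a beta-2 integrin chain abundant on lymphocytes, was higher in RYGB-Success than in Pair-Fed by 1.37 ± 0.51 (adjusted p = 0.825).

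For RYGB-Fail over Pair-Fed in fat, all 11 resident macrophage genes were below 0, with a median of -0.71, and medians of the other 6 lists ran from -0.66 to -0.01, with no call. Without the third RYGB-Fail array 8 of 11 resident macrophage genes were below 0, their median was -0.26, and the other medians ran from -0.37 to 0.04.

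Whether the responses differed between tissues was tested as an interaction, the difference in fat minus the difference in hypothalamus, over 15531 probe sets. None of the 8 genes tested in both tissues passed, and neither did any other probe set (0%). For RYGB-Success over Pair-Fed all 8 were below 0, from -1.81 to -0.38, where 48.3% of probe sets were. C1qb had -1.81 ± 0.63 (limma, adjusted p = 0.461), Csf1r -1.63 ± 0.55 (limma, adjusted p = 0.438) and C1qa -1.57 ± 0.67 (limma, adjusted p = 0.545), in a comparison where 8.26% of probe sets had an unadjusted p under 0.05. For RYGB-Fail over Pair-Fed all 8 were again below 0, from -1.16 to -0.37, where 59% of probe sets were (adjusted p = 1.00 for all, 0% called, 3% at an unadjusted p under 0.05), and for RYGB-Success over RYGB-Fail 4 of 8 were, and 41.6% of probe sets (adjusted p = 0.812 to 0.978, 0% called, 6.45% at an unadjusted p under 0.05). Without the third RYGB-Fail fat array 7 of 8 were below 0 for RYGB-Fail over Pair-Fed and all 8 for RYGB-Success over RYGB-Fail, from -1.41 to -0.05. With array weights 7 of 8 were below 0 in each of these comparisons.

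**Figure D5:**
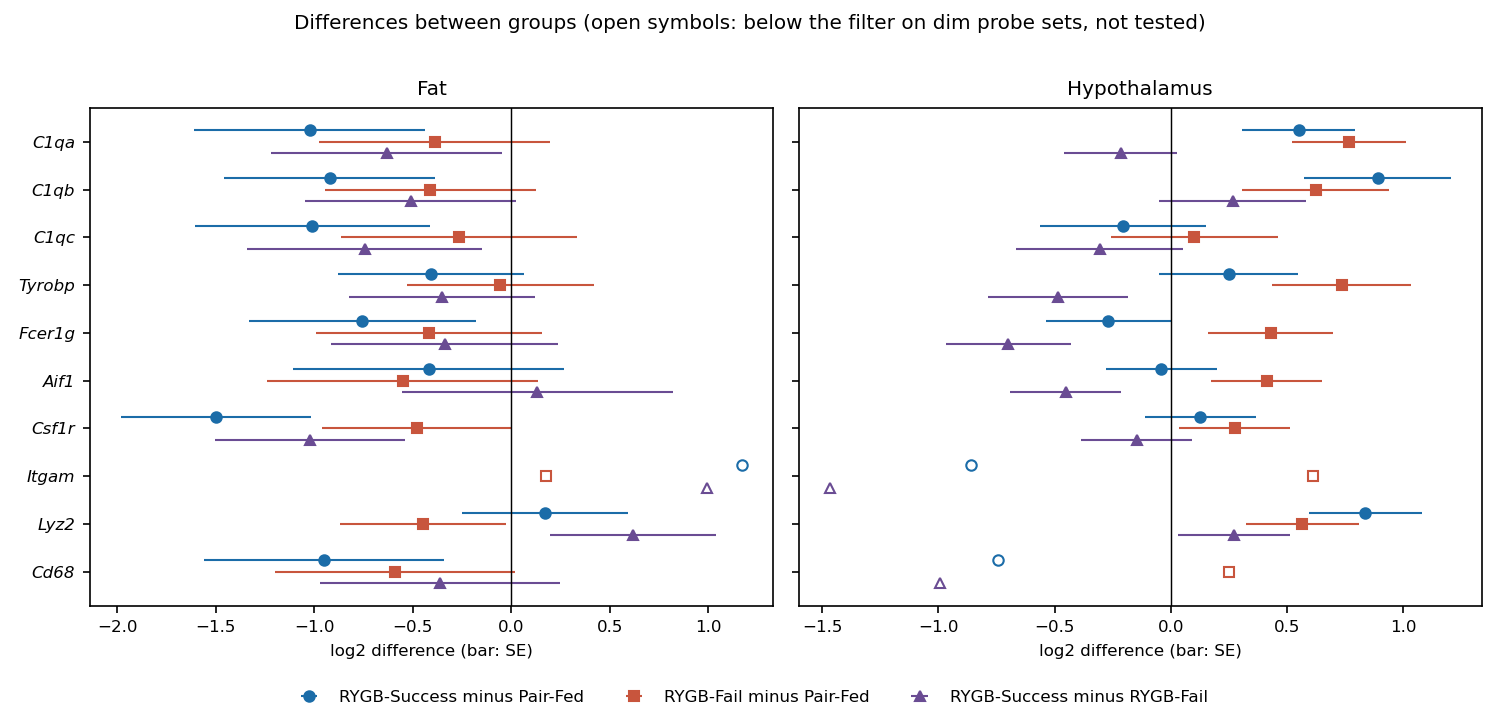
Log2 differences of each gene for the 3 comparisons of treatments in fat (left) and hypothalamus (right), with bars of 1 SE from the limma fit; open symbols mark genes below the filter, which were not tested. In fat the RYGB-Success minus Pair-Fed points of 8 of the 9 tested genes lie below 0, and in hypothalamus the RYGB-Fail minus Pair-Fed points of all 8 tested genes lie above 0.

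Within fat the genes varied together over the 9 arrays. The Pearson correlation of each gene with the mean of the other 9 genes was 0.74 to 0.89 for 8 of them, 0.50 for Lyz2 and 0.18 for Itgam. Over the 8 arrays other than the third RYGB-Fail array it was 0.69 to 0.97 for those 8 genes, 0.20 for Lyz2 and 0.14 for Itgam. In hypothalamus it was 0.90 for Aif1, 0.65 for Tyrobp and 0.62 for C1qa, and -0.07 for C1qc and 0.02 for C1qb. For the other genes, the mean includes Itgam and, in hypothalamus, also the dim Cd68, and their wide scatter weighs in it. These points share array, scaling and RNA quality, and no test was made of them. The spread over arrays was larger in fat than in hypothalamus for all genes but Cd68. Signals of C1qa spanned 6.90-fold and those of Aif1 8.96-fold in fat, against 2.13-fold and 1.76-fold in hypothalamus. Without the third RYGB-Fail array, which had 211, the Aif1 signals in fat ran from 576 to 1887. Cd68 spanned 8.01-fold in fat and 11.6-fold in hypothalamus, where it was dim. Of the 10 genes, 5 had their highest fat signal on the first Pair-Fed array and 4 on the first RYGB-Fail array.

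The genes outside the set whose log2 signals followed the mean of the set most closely over the 9 fat arrays were Tprg1l (Pearson r = 0.96), Tbc1d2b (0.96), Dnajb1 (0.96), Antxr2 (0.96), Ptpro (0.95) and Agtr1a (0.95). In hypothalamus they were Fam177a1 (0.91), Rnaset2 (0.89), Mafg (0.87), Nrip2 (0.86), Snapin (0.86) and Sarnp (0.84). The mean of the set includes genes below the filter, Itgam in both tissues and Cd68 in hypothalamus. Over the 9 hypothalamus arrays their SDs of log2 signal were 1.13 and 1.02, against 0.20 to 0.46 for the others. In fat the SD was 1.71 for Itgam, against 0.59 to 0.97 for the others. These dim genes weigh more in the mean than any other gene, so the likenesses can follow their scatter. These are descriptions of 9 arrays that share scaling and RNA quality. For the genes outside the set, the fat correlations were not computed without the third RYGB-Fail array.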

How the data were processed

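RNA of each tissue sample was purified on Qiagen RNeasy columns and amplified and labelled by Nugen WT Ovation with biotin, per the labels' protocols. The authors' deposited file gives 1 linear intensity for each probe set. The submitters' processing notes name MAS5 and GCOS, without versions or settings. On every array the mean of the deposited intensity, after trimming 2% at each end, was 500.1 to 500.2, so all arrays share a trimmed mean but not a median. No gene's level was set against another gene's.

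Groups and replicate numbers came from the titles, and the labels call the 3 samples of a group biological replicates. Log2 of the signal was taken with no pseudocount. Of 31042 probe sets other than 57 controls, the upper 60% by mean log2 signal in a tissue were tested, 18625 in each. Fits used limma 3.58.1 (eBayes with a trend; R 4.3.3) over all 9 arrays of a tissue, and over 18 arrays across tissues, 2-sided, with Benjamini-Hochberg adjustment over all probe sets tested. The fit was tested on simulated data. Tables and plots used Python 3.11.15, pandas 2.3.3 and matplotlib 3.10.9. The number of arrays limits the precision.

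The genes, the 7 related lists and the 14 marker lists were chosen with earlier results of these data known. All probe sets of the 10 genes were described; of each related list, members past the threshold and up to 3 with the lowest p were eligible to be named; and the 6 genes most like the set's mean were named per tissue. In fat Cd163 and Mrc1, and in hypothalamus S100a8 and Ttr, were chosen outside that rule with their values seen. Gene symbols came from the platform annotation, and all 10 matched RefSeq symbols by gene ID. Alternatives were a pseudocount, other filters, other scalings, array weights, a replicate block, fits of the 6 arrays compared and leaving out single arrays. Leaving out arrays for list medians, marker sums and correlations, and medians of tested genes alone, were alternatives chosen after seeing the data.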

Additional observations from a re-analysis of the deposited data

How the results depend on the processing

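Directions of the 10 genes in the report held under most alternatives, but several of these cannot move a treatment difference within a tissue. Other filters, the replicate block, fits of only the arrays compared and leaving out an array of the group not compared gave identical differences. With single arrays of the compared groups left out, all 10 genes changed sign in fat for RYGB-Fail over Pair-Fed. For RYGB-Success over Pair-Fed in fat only Lyz2 did. The threshold was crossed in a comparison of treatments by 1 gene under 1 alternative, Csf1r in fat for RYGB-Success over RYGB-Fail without the third RYGB-Fail array. For each change below the cause was not tested, and none of the treatment differences named below passed the threshold. The median difference of the genes for RYGB-Fail over Pair-Fed in fat turned to 0.19 with array weights.

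With each array centred on its median, the median difference over all probe sets moves by -0.37, -0.07 and -0.30 in fat and by -0.24, -0.11 and -0.12 in hypothalamus (RYGB-Success over Pair-Fed, RYGB-Fail over Pair-Fed and RYGB-Success over RYGB-Fail). Under that centring, Lyz2 turned to -0.20 in fat for RYGB-Success over Pair-Fed and Aif1 to -0.17 for RYGB-Success over RYGB-Fail. In hypothalamus Csf1r turned to -0.11 for RYGB-Success over Pair-Fed, where the median of the genes moved to -0.19, and C1qc to -0.011 for RYGB-Fail over Pair-Fed. The interaction of Tyrobp for RYGB-Success over RYGB-Fail turned to -0.041. In hypothalamus 6 probe sets were called for RYGB-Success over Pair-Fed and 2 for RYGB-Success over RYGB-Fail. With quantile normalization Cd68 turned to 0.041 in fat for RYGB-Success over RYGB-Fail, C1qc to -0.012 in hypothalamus for RYGB-Fail over Pair-Fed and the Lyz2 interaction for RYGB-Success over RYGB-Fail to -0.044, and 2 probe sets were called for RYGB-Success over RYGB-Fail in hypothalamus.

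Array weights gave 39, 35 and 26 calls in fat (in the order of comparisons above), 6 and 6 in hypothalamus for RYGB-Success over Pair-Fed and over RYGB-Fail, and 35, 12 and 4 for the interactions, none of these genes among them. They turned, in fat for RYGB-Fail over Pair-Fed, C1qa to 0.19, C1qc to 0.42, Tyrobp to 0.36, Fcer1g to 0.20, Aif1 to 0.29, Csf1r to 0.050 and Cd68 to 0.038, and for RYGB-Success over RYGB-Fail Aif1 to -0.58. Interactions turned to 0.34 for C1qc (RYGB-Fail over Pair-Fed) and to -0.50, -0.25 and -0.021 for Tyrobp, Fcer1g and Lyz2 (RYGB-Success over RYGB-Fail). In hypothalamus the pseudocount gave 4 calls for RYGB-Success over Pair-Fed and 2 over RYGB-Fail, where the median of the genes was -0.19, the upper 40% of probe sets gave 1 for RYGB-Success over Pair-Fed, no filter gave 2 for RYGB-Success over RYGB-Fail, and fits of the 6 arrays compared gave 5 and 0.

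Leaving out single arrays gave 0 to 22, 0 to 44 and 0 to 1050 calls in fat, 1 to 64 and 0 to 6 in hypothalamus for RYGB-Success over Pair-Fed and over RYGB-Fail, and 0 to 42, 0 to 17 and 0 to 133 for the interactions. Without the third RYGB-Fail fat array the calls were 44 and 1050 in fat and 8, 17 and 133 for the interactions. Without the first RYGB-Success fat array they were 22 and 13 in fat (over Pair-Fed and over RYGB-Fail) and 42 and 22 for the interactions of those comparisons. Without the second RYGB-Success hypothalamus array they were 64 and 6, and in hypothalamus every RYGB-Fail array left out in turn gave 0 calls for RYGB-Success over RYGB-Fail.

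Ranges that crossed 0 when single arrays were left out follow. In fat, Lyz2 for RYGB-Success over Pair-Fed ran from -0.13 to 0.48. For RYGB-Fail over Pair-Fed these were C1qa (-0.94 to 0.16), C1qb (-0.98 to 0.022), C1qc (-0.86 to 0.28), Tyrobp (-0.49 to 0.35), Fcer1g (-0.84 to 0.32), Aif1 (-1.19 to 0.39), Csf1r (-0.91 to 0.062), Itgam (-1.19 to 1.39), Lyz2 (-0.70 to 0.016) and Cd68 (-1.02 to 0.17). For RYGB-Success over RYGB-Fail they were Tyrobp (-0.61 to 0.086), Fcer1g (-1.08 to 0.084), Aif1 (-0.81 to 0.77), Itgam (-0.22 to 2.36) and Cd68 (-1.12 to 0.065). In hypothalamus they were C1qc (-0.47 to 0.070), Fcer1g (-0.48 to 0.076), Aif1 (-0.18 to 0.048) and Cd68 (-1.52 to 0.25) for RYGB-Success over Pair-Fed, C1qc (-0.16 to 0.29) and Itgam (-0.37 to 1.10) for RYGB-Fail over Pair-Fed, and Cd68 (-1.77 to 0.0043) for RYGB-Success over RYGB-Fail. Interactions were C1qc (-0.96 to 0.17) for RYGB-Fail over Pair-Fed and, for RYGB-Success over RYGB-Fail, C1qa (-0.81 to 0.14), C1qc (-0.98 to 0.15), Tyrobp (-0.15 to 0.57), Fcer1g (-0.38 to 0.78), Aif1 (-0.36 to 1.22) and Lyz2 (-0.12 to 0.66).

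In Pair-Fed rats, calls between tissues numbered 7723 and ran from 5850 to 10341 over the alternatives. The replicate block gave 2 calls for RYGB-Success over RYGB-Fail in hypothalamus and changed no call of these 10 genes. Deviations of samples with the same number correlated from -0.13 to 0.29 in fat, -0.16 to 0.07 in hypothalamus and -0.06 to 0.20 across tissues. Those of samples with different numbers ran from -0.25 to 0.25, -0.11 to 0.21 and -0.24 to 0.15. These ranges overlap and do not settle whether a number marks the same animal. The numbers were not taken to pair the samples. Signal over background limits Itgam, the second Aif1 probe set and hypothalamic Cd68.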
